A study of Mus musculus with 15 samples.

Results

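Axon guidance ligands and their receptors are described here in whole cerebella of Cxcr4 KO and WT mice on postnatal day 1. Genes were taken by symbol from the annotation of the array, without regard to their values, and comprise semaphorins, plexins, neuropilins, Slits, Robos, netrins, Unc5 receptors, ephrins and Eph receptors. They are 63 of the 16593 named genes and 95 of the 25697 probes. By family they are 18 semaphorins, 8 plexins, 2 neuropilins, 3 Slits, 3 Robos, 4 netrins, 4 Unc5 receptors, 8 ephrins and 13 Eph receptors, and Dcc is not analysed here. The KO animals were Cxcr4 flox/flox; Sox1-Cre mice, in which Cre is made in the neural precursors of the embryo and removes a floxed exon of Cxcr4, the receptor of the chemokine Cxcl12. The WT animals were littermates without Cre, and the strain of both is given as C57BL/6. Gene expression was measured on 15 Illumina MouseRef-8 v2 arrays, 7 KO and 8 WT, with 1 cerebellum sample on each. The methods call the samples biological replicates, and the labels do not name the animals. Whole cerebella also hold cells, such as those of vessels and meninges, that do not descend from these precursors. In such bulk samples fewer cells of a type and less RNA per cell cannot be told apart.

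These families carry the signals by which growing axons and migrating neurons find their way. Semaphorins act through plexins, the secreted class with a neuropilin as co-receptor. Slits act through Robos, mostly as repellents. Netrins attract through Dcc and repel through Unc5 receptors. Ephrins are bound to the membrane and signal with Eph receptors in both of the cells that touch. In the developing cerebellum the pair of Sema6a and Plxna2 is known for its part in the migration of granule cells, and loss of Unc5c in mice lets cerebellar cells move past their normal border.

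Cxcr4 itself had a log2 signal of 6.45 to 6.89 on the KO arrays, against 8.80 to 9.79 on the WT arrays. Whether its probe lies in the removed exon was not examined. The 8 granule cell lineage markers summed to a signal of 13500 to 16100 in KO and 11900 to 13800 in WT, with 1 of the 8 higher and none lower in KO at an unadjusted p under 0.05 and a median difference of 0.07. Of these markers Atoh1 and Pax6 lay below the common array median on all arrays. KO replicates 6, 7 and 8 stood apart: the mean of the 14 meningeal markers, taken relative to its mean over all arrays, was -1.61 to -0.93 on them (log2 scale) and -0.35 to 0.91 on all other arrays. Of these 14 markers 6 were lower in KO at an unadjusted p under 0.05 and none was higher, and Foxd1 lay below the common median on all arrays. Their summed signal was 4210 to 38500 in KO and 14600 to 43200 in WT. On the same 3 arrays the mean of 7 microglia and macrophage markers was -0.57 to -0.38, against -0.19 to 0.36 on the others, and that of 6 Purkinje cell markers was 0.22 to 0.39, against -0.25 to 0.08. Of these 6 markers 1 was lower and 1 higher in KO at an unadjusted p under 0.05, with a median difference of 0.01. Calb1 among them lay below the common median on all arrays. The 5 interneuron progenitor markers summed to 3540 to 4790 in KO and 4540 to 6080 in WT, with 2 lower and 1 higher at an unadjusted p under 0.05. Pax2 and Gad2 among them lay below the common median on all arrays. The part of these cells in the results was not tested. The arrays numbered 1 to 4 in the sample titles (3 KO, 4 WT) also differed from those numbered 5 to 8 (4 KO, 4 WT). In the first set the female-specific RNA Xist was high on all 4 WT arrays (8.18 to 8.32) and low on all 3 KO arrays (6.37 to 6.46), so that sex and genotype cannot be told apart there. In the second set it was high on KO replicate 7 (8.10) and on WT replicates 7 and 8 (8.57 and 8.55), and low on the others. Over all arrays Xist averaged 6.62 in KO and 7.85 in WT, so that sex is unevenly spread over the genotypes in the main comparison too. Levels below are log2 signals scaled to a common median of 6.84, differences are KO minus WT on the log2 scale, and a gene is described by its brightest probe.

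The sequence before the start of 4 genes is shown first, because Plxna2 had the lowest p of all members, Sema7a and Ntn4 the largest differences among those higher at an unadjusted p under 0.05, and Sema5a 2 probes that were both higher. Each run is the 250 bases before the RefSeq start on the plus strand of GRCm38.p6, 5′ to 3′. Capitals mark GC boxes (GGGCGG, or CCGCCC on the other strand) and E-boxes (CANNTG, which reads the same on both strands). The 2 motifs were searched with overlaps counted.
Plxna2 chr1:194619579-194619828: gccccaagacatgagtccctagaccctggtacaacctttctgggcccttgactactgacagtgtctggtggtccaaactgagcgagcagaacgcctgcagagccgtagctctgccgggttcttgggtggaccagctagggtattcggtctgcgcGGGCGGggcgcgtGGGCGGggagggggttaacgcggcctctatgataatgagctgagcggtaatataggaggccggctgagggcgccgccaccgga
Sema7a chr9:57939862-57940111: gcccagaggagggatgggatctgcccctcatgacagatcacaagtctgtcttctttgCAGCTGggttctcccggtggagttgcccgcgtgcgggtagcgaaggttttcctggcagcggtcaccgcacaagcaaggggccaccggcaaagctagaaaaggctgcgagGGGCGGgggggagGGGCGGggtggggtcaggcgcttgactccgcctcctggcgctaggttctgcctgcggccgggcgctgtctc
Ntn4 chr10:93640799-93641048: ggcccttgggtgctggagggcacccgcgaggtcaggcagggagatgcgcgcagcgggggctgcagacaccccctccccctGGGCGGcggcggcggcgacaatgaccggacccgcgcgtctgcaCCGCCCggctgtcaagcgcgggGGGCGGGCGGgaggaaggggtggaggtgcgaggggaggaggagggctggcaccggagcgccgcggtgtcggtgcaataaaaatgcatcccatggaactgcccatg
Sema5a chr15:32244563-32244812: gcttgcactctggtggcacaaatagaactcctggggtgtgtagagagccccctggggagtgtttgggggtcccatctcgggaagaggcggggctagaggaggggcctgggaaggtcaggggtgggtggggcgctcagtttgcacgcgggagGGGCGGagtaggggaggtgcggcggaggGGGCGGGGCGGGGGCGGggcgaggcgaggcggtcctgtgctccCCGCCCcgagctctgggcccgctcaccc
All 4 windows hold GC boxes: 2 in Plxna2, 2 in Sema7a, 4 in Ntn4 and 5 in Sema5a. Only that of Sema7a among them holds an E-box, CAGCTG. The table gave 68 windows for 54 of the 63 members. A GC box was present in 70.6% of the member windows and in 32.7% of all 32851 windows. An E-box was present in 47.1% of the member windows and in 66.2% of all windows. The member windows held a median of 15 CpG dinucleotides, against 6 over all windows. These are descriptions of sequence, and a match is not evidence of a bound site.

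The comparison asks whether guidance genes differ between cerebella with and without Cxcr4. None of the 95 member probes passed an adjusted p of 0.05 in limma over all probes, where 20 of 25697 probes did (0.0778%). At an unadjusted p under 0.05, 4 of 63 genes were lower in KO, namely Plxna2, Nrp1, Efna1 and Ephb1, against 2.72% of all genes. At the same threshold 9 of 63 were higher, namely Sema7a, Ntn4, Sema5a, Epha3, Unc5d, Plxna1, Slit3, Sema6d and Ntn1, against 3.08% of all genes. The median difference was 0.00405 over the members and 0.0145 over all genes, with 34 members above 0 and 29 below. A difference beyond 0.2 in either direction was found for 8 members (12.7%), against 4.28% of all genes. Without KO replicates 6, 7 and 8, Robo4, Ntn5, Sema6c and Sema5a of these had 0.08, 0.04, -0.13 and 0.11. Plxna2, Sema7a, Ntn4 and Epha3 then had -0.20, 0.34, 0.21 and 0.19. The signal was above the common median on no array for 16 of 63 members and 6280 of all 16593 genes. The standard error of a member's difference had a median of 0.0785. The count of lower genes was 1 without WT replicate 5, against 2.09% of all genes. It was 2 without KO replicate 4, WT replicate 1, WT replicate 7 or WT replicate 8, against 2.65% to 3.18% of all genes, so that the lower genes were then at or near the background. Without KO replicates 6, 7 and 8, 4 genes were lower (Plxnd1, Plxna2, Robo2 and Ephb1), against 3.48% of all genes, and 2 were higher (Ntn4 and Epha3), against 2.78%. With the mean of the meningeal markers as a covariate, 7 were lower and 2 higher, against 4.33% and 2.44% of all genes. Of the 13 genes, 4 kept an unadjusted p under 0.05 without these 3 arrays and 5 with the covariate. With the Xist signal as a covariate 4 were lower and 4 higher, against 3.48% and 2.97% of all genes, and 7 of the 13 kept it.

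**Figure D1:**
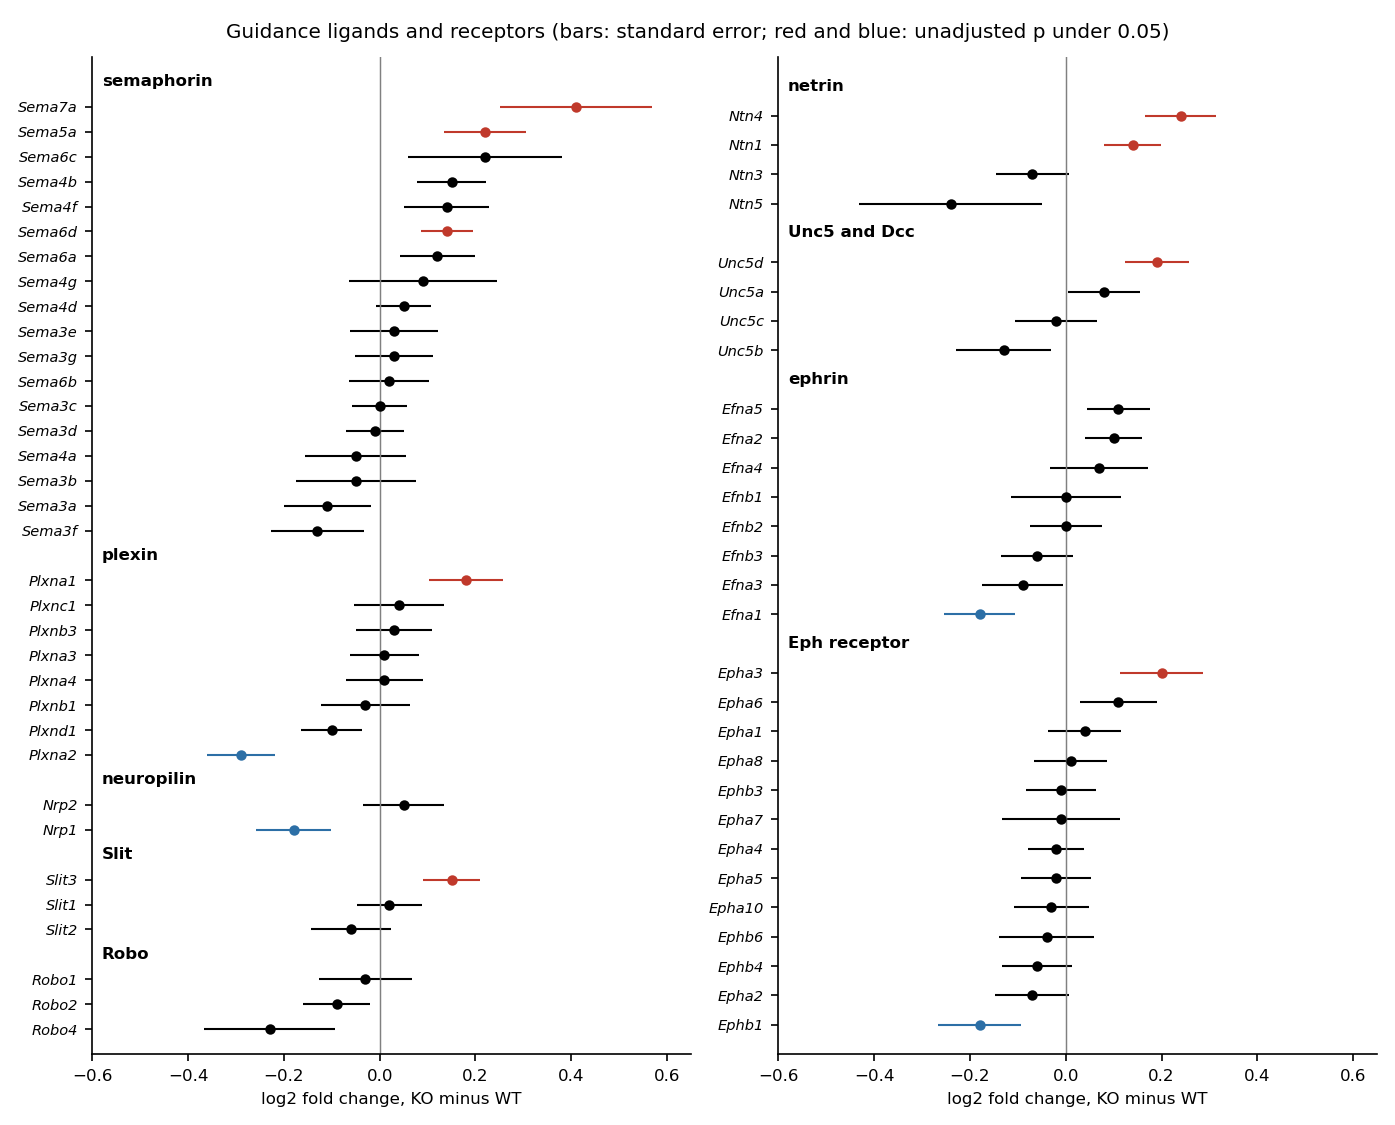
Difference in log2 signal, KO minus WT, for the brightest probe of each of the 63 genes, ordered within families; bars are standard errors from limma. Red and blue points are the 9 higher and 4 lower genes at an unadjusted p under 0.05, and most other intervals cross or lie close to 0.

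Plxna2, a plexin that receives class 6 semaphorins, had the largest negative difference. Its log2 signal was 9.23, 9.22, 9.18, 9.20, 9.07, 8.98 and 8.89 on KO replicates 2 to 8, against 9.39, 9.24, 9.31, 9.28, 9.56, 9.58, 9.34 and 9.54 on WT replicates 1 to 8. The highest KO value, 9.23, was just under the lowest WT value, 9.24, so that the groups did not overlap. Of all genes 11 (0.0663%) had this order, and Plxna2 was the 1 member among them. No member had all KO values above all WT values, against 0.0783% of all genes. The difference was -0.29 ± 0.0716 (SE), a KO signal 0.816 times that of WT, with a limma adjusted p of 0.235. The 2 sets of arrays gave -0.09 (arrays 1 to 4) and -0.47 (arrays 5 to 8). In the second set alone its limma adjusted p was 0.04998, and 78 probes of the array passed there, against 20 in the main fit. The interaction of genotype and array set was -0.37 with an adjusted p of 0.3. The difference was -0.20 without KO replicates 6, 7 and 8, the 3 lowest arrays, and -0.41 with Xist as a covariate.

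The other plexins showed smaller differences. Plxna1, a receptor of Sema5a and Sema6d, had a low signal, of 6.40 to 6.87 in KO (median 6.53), against 6.15 to 6.57 in WT (median 6.36). Its difference was 0.18 ± 0.0769 (SE; adjusted p = 0.825), and 1 of the 15 arrays lay above the common median. Differences of the remaining 6 plexins ran from -0.10 for Plxnd1, the receptor of Sema3e, to 0.04 for Plxnc1, the receptor of Sema7a. The difference of Plxnd1 was -0.18 without KO replicates 6, 7 and 8.

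Nrp1, the co-receptor of secreted semaphorins and of vascular endothelial growth factor, ranged from 9.53 to 10.13 in KO (median 9.85) and from 9.84 to 10.14 in WT (median 10.03). The ranges overlapped, and 3 KO arrays were under the WT range. The difference was -0.18 ± 0.0779 (SE; adjusted p = 0.862), and its other probe gave -0.14. Within the array sets it was -0.08 and -0.26, and it was -0.07 without KO replicates 6, 7 and 8. Nrp2, which pairs with Sema3f, had a difference of 0.05.

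Among the 18 semaphorins 3 genes were higher at an unadjusted p under 0.05. Sema7a, which is anchored to the membrane by a lipid, ranged from 10.44 to 11.45 in KO (median 10.90) and from 10.01 to 11.12 in WT (median 10.49). The groups overlapped widely, with 2 KO arrays above the highest WT array. Its difference of 0.41 ± 0.158 (SE; adjusted p = 0.747) was the largest of the 63, and its 2 dimmer probes gave 0.10 and -0.03. Arrays 1 to 4 gave 0.43 and arrays 5 to 8 gave 0.32, and the difference was 0.20 with Xist as a covariate. Sema7a was also 0.52 higher on arrays 5 to 8 than on arrays 1 to 4 with genotype in the model.

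Sema5a, a transmembrane semaphorin with thrombospondin repeats, ranged from 10.20 to 10.74 in KO (median 10.55) and from 10.10 to 10.50 in WT (median 10.25). Of the KO arrays 4 lay above the highest WT array and 2 below the WT mean. The difference was 0.22 ± 0.0856 (SE; adjusted p = 0.742), and the second probe gave 0.25, but 0.08 without KO replicates 6, 7 and 8. Arrays 1 to 4 gave 0.11, arrays 5 to 8 gave 0.32, and the difference was 0.11 without KO replicates 6, 7 and 8. Sema6d ranged from 10.15 to 10.38 in KO (median 10.31) and from 10.02 to 10.25 in WT (median 10.16). In this gene 6 of 7 KO arrays lay above the highest WT array, and the exception was KO replicate 2. Its difference was 0.14 ± 0.054 (SE; adjusted p = 0.735), and its other probes gave 0.26 (adjusted p = 0.333), 0.01 and 0.08. The remaining semaphorins lay between -0.13 for Sema3f, a secreted repellent, and 0.22 for Sema6c. The signal of 4 semaphorins, Sema3c, Sema3d, Sema3e and Sema3g, was below the common median on all arrays.

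Of the Slits, Slit3 ranged from 6.69 to 7.05 in KO (median 6.90) and from 6.66 to 6.88 in WT (median 6.76). Here 5 KO arrays lay above the highest WT array, but KO replicate 3 was among the lowest of all. The difference was 0.15 ± 0.0602 (SE; adjusted p = 0.801), at a signal near the common median. The study reported Slit3 and Sema5a as significantly increased in KO from these same arrays, so that their values are not independent evidence of a direction. Here both were higher at an unadjusted p under 0.05, and neither passed the adjusted threshold (limma adjusted p = 0.801 and 0.742). The study does not state whether its p for single genes was adjusted, so that the thresholds may not be alike. By gene set enrichment the study also reported pathways related to axonal guidance as down-regulated in KO, and no set test was run here. Slit1 and Slit2 had differences of 0.02 and -0.06. Robo1 and Robo2, the neuronal Slit receptors, had differences of -0.03 and -0.09, and Robo2 was -0.17 without KO replicates 6, 7 and 8.

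Robo4 belongs to the endothelium rather than to neurons. Its log2 signal was 10.08, 9.82, 9.65, 9.82, 9.16, 9.00 and 9.20 on KO replicates 2 to 8, against 9.59, 9.54, 9.92, 9.73, 9.96, 9.96, 9.57 and 9.88 on WT replicates 1 to 8. KO replicates 6, 7 and 8 were the lowest of the 15 arrays and the other KO arrays lay at or above the WT minimum. The difference was -0.23 ± 0.136 (SE; adjusted p = 0.972), but 0.16 on arrays 1 to 4 against -0.55 on arrays 5 to 8, an interaction of -0.70 (adjusted p = 0.282). Without KO replicates 6, 7 and 8 it was 0.08, and with the meningeal covariate 0.00. It was -0.47 with Xist as a covariate and -0.46 without the arrays high in the choroid plexus gene Ttr. Those arrays were KO replicates 2, 3 and 5 and WT replicates 4, 6 and 8. KO replicates 6, 7 and 8 are then 3 of the 4 KO arrays left, so that this value is not separate from theirs. The dimmer probes of Robo4 gave -0.11 and -0.06, with interactions of -0.21 and 0.00. On the first KO replicates 6, 7 and 8 had 6.36, 6.75 and 6.92, against 6.84 to 7.06 in WT. On the second they had 6.23, 6.18 and 6.13, against 6.00 to 6.36. Of 9 measured endothelial markers 3 were lower in KO at an unadjusted p under 0.05 and none was higher, with a summed signal of 3100 to 4420 in KO and 3430 to 4970 in WT. Relative to all arrays, their mean was -0.30 to -0.20 on KO replicates 6, 7 and 8 and -0.17 to 0.28 on the others. Kdr lay below the common median on all arrays. The part of these cells in the Robo4 signal was not tested.

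**Figure D2:**
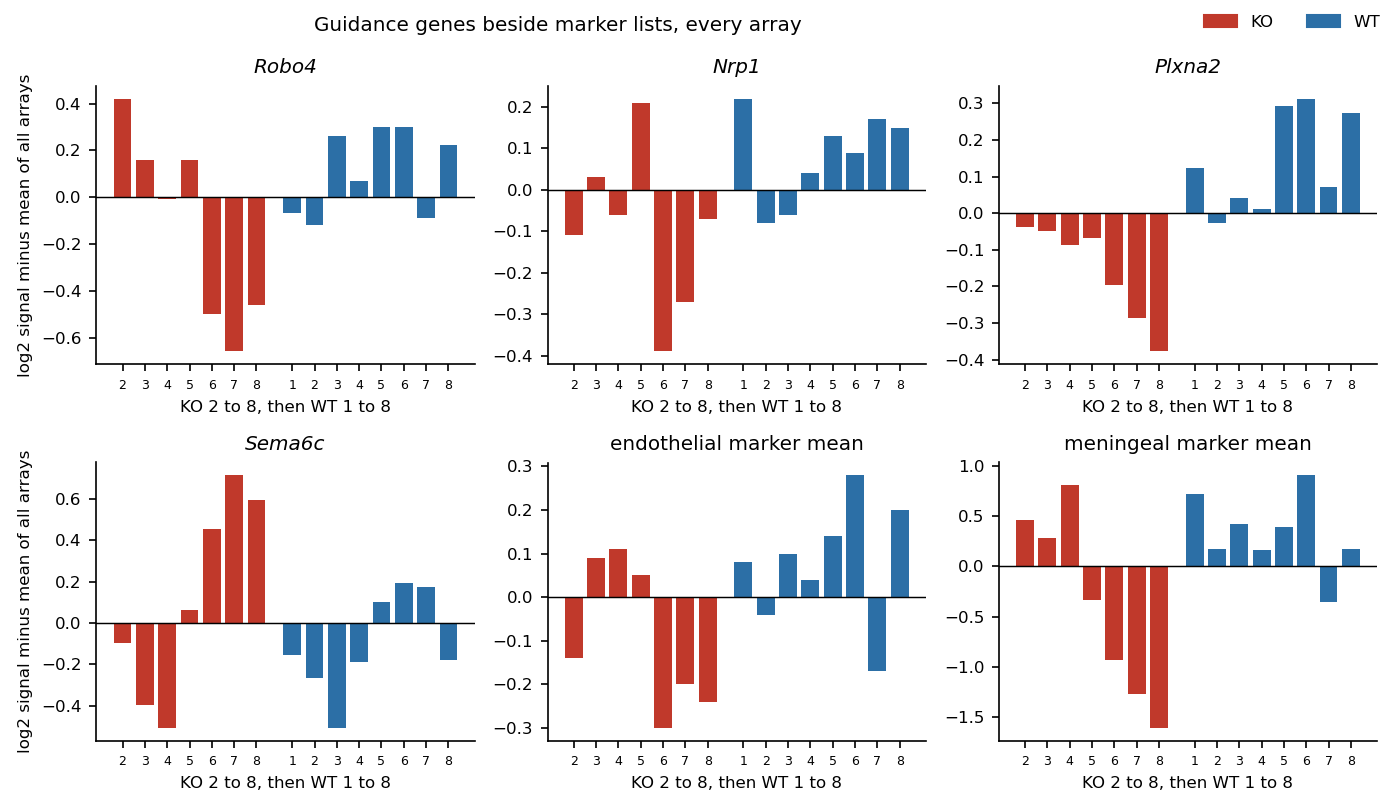
Log2 signal minus its mean over the 15 arrays, as bars, for Robo4, Nrp1, Plxna2 and Sema6c and for the mean of the endothelial and meningeal markers, with KO arrays in red and WT arrays in blue. KO replicates 6, 7 and 8 are low for Robo4 and for both marker means and high for Sema6c, while for Plxna2 all 7 KO arrays are low.

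Among the netrins Ntn4, a laminin-related netrin of basement membranes, ranged from 7.05 to 7.42 in KO (median 7.33) and from 6.84 to 7.26 in WT (median 6.99). All 7 KO arrays lay above the WT mean and 4 of them above the highest WT array. The difference was 0.24 ± 0.0745 (SE; adjusted p = 0.471), the lowest p of the genes that were higher. Arrays 1 to 4 gave 0.28 and arrays 5 to 8 gave 0.19, and it was 0.21 without KO replicates 6, 7 and 8. Ntn1, the classical attractant of commissural axons, had a low signal of 6.03 to 6.29 in KO (median 6.14) and of 5.83 to 6.10 in WT (median 6.02). Its difference was 0.14 ± 0.0593 (SE; adjusted p = 0.847), and its signal was below the common median on all arrays. Ntn5 varied most of all members, from 6.48 to 7.73 in KO (median 6.69) and from 6.72 to 7.95 in WT (median 7.07), with a difference of -0.24 ± 0.191 (SE; adjusted p = 0.995). Arrays 1 to 4 gave 0.24 but arrays 5 to 8 gave -0.61, and it was 0.04 without KO replicates 6, 7 and 8.

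Of the netrin receptors, Unc5d ranged from 5.89 to 6.18 in KO (median 6.12) and from 5.65 to 6.07 in WT (median 5.89). All 7 KO arrays lay above the WT mean, at a signal below the common median on every array. The difference was 0.19 ± 0.067 (SE; adjusted p = 0.624), made up of 0.05 on arrays 1 to 4 and 0.31 on arrays 5 to 8. Unc5c, the gene of the cerebellar border phenotype, averaged 11.68 ± 0.16 in KO and 11.70 ± 0.19 in WT (SD, n = 7 and 8). Its difference was -0.02 ± 0.086 (SE). Unc5a and Unc5b had differences of 0.08 and -0.13.

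Of the ephrins Efna1, which is bound by several EphA receptors, ranged from 7.17 to 7.48 in KO (median 7.31) and from 7.26 to 7.79 in WT (median 7.48). All 7 KO arrays lay below the WT mean and 2 below the lowest WT array. The difference was -0.18 ± 0.0748 (SE; adjusted p = 0.823), with -0.21 and -0.17 within the array sets and -0.19 without KO replicates 6, 7 and 8. By their brightest probes the other 7 ephrins lay between -0.09 for Efna3 and 0.11 for Efna5. The probes of Efna4, a ligand of EphA receptors, differed: the brighter gave 0.07 and the other 0.30 ± 0.0995 (SE; adjusted p = 0.592). The dimmer probe gave 0.14 without KO replicates 6, 7 and 8. It gave 0.54 without the arrays high in Ttr, where these replicates are among the 4 KO arrays left.

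Among the Eph receptors Ephb1, a receptor of B ephrins, ranged from 11.60 to 12.16 in KO (median 11.86) and from 11.81 to 12.26 in WT (median 12.02). Its difference was -0.18 ± 0.0862 (SE; adjusted p = 0.898), and 3 KO arrays, replicates 2, 3 and 4, were under the WT range. Arrays 1 to 4 gave -0.29 and arrays 5 to 8 gave -0.13, and it was -0.30 without KO replicates 6, 7 and 8. Epha3, a receptor of A ephrins, ranged from 8.12 to 8.73 in KO (median 8.53) and from 8.14 to 8.60 in WT (median 8.21). KO replicate 6 was the lowest of the 15 arrays although the KO median was higher. The difference was 0.20 ± 0.0872 (SE; adjusted p = 0.847), and the other probes gave 0.04 and 0.02. The remaining 11 Eph receptors lay between -0.07 for Epha2 and 0.11 for Epha6.

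**Figure D3:**
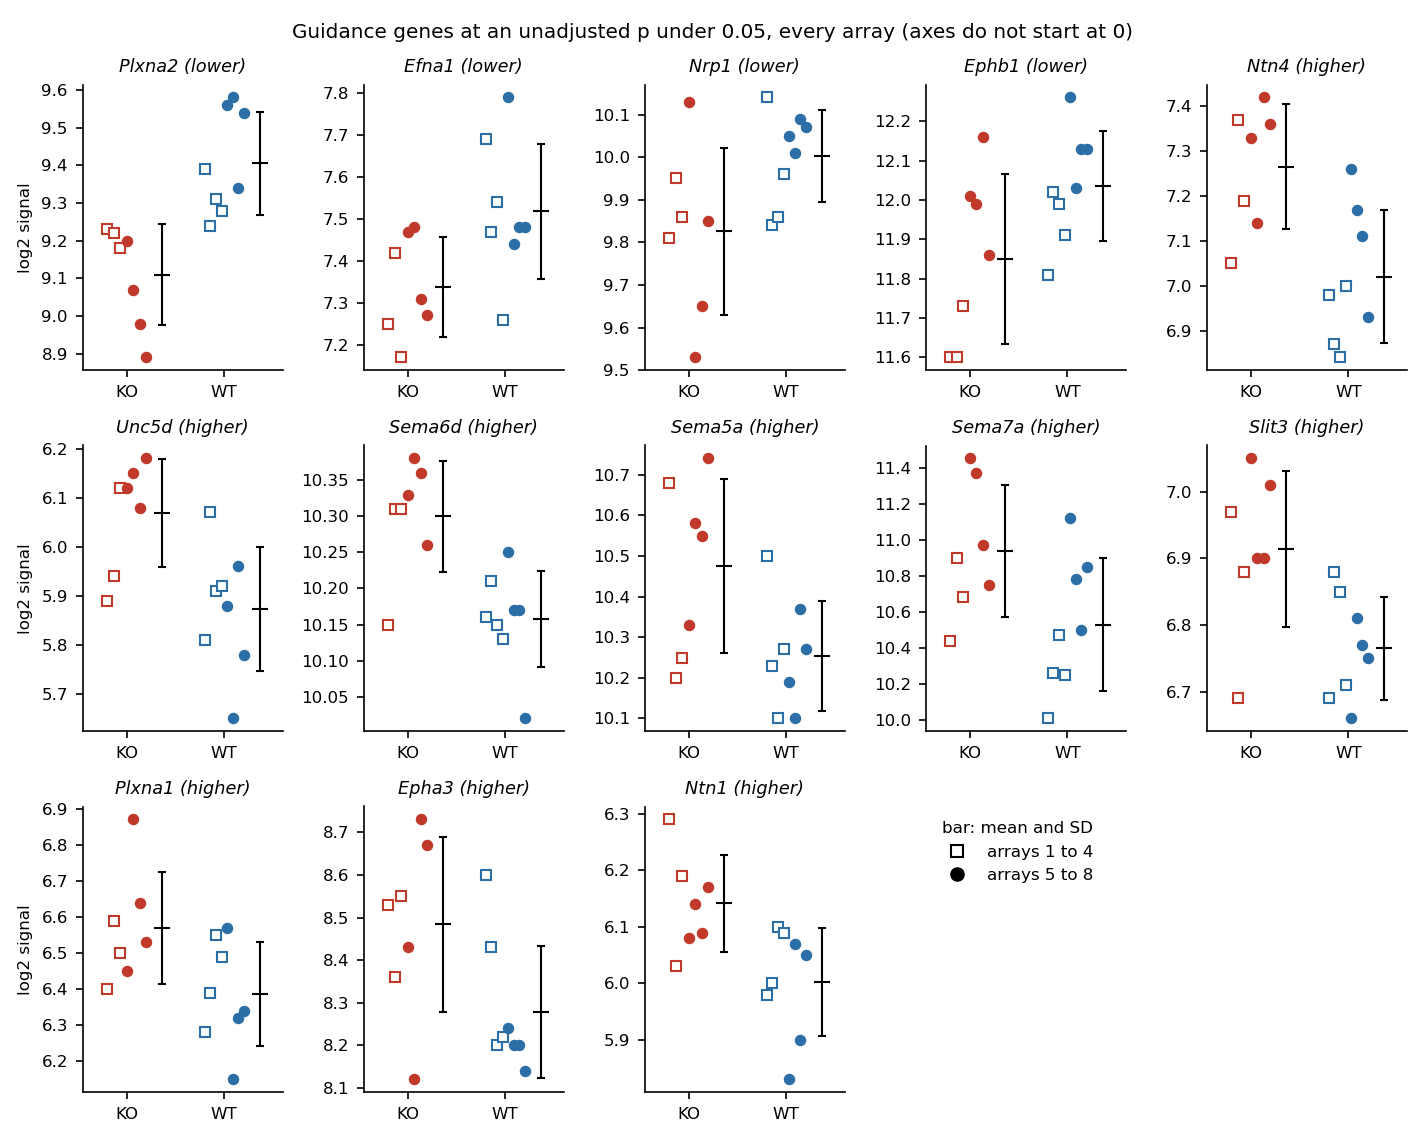
Log2 signal on every array of the 13 genes with an unadjusted p under 0.05, KO in red and WT in blue; open squares are arrays 1 to 4, filled circles arrays 5 to 8, and the black bar is the mean with its SD. Only for Plxna2 do the groups not overlap.

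Ligands were then set beside receptors, in a list of pairs that leaves out some ligands, such as Efna1 and Ntn4. The list has 35 pairs, of which 32 had both genes analysed. In 3 pairs both genes were below an unadjusted p of 0.05, in 12 only the ligand or only the receptor, and in 17 neither. The 3 pairs were Sema5a with Plxna1 (0.22 and 0.18), Sema6d with Plxna1 (0.14 and 0.18) and Ntn1 with Unc5d (0.14 and 0.19), and all of these genes were higher in KO. Plxna1, Ntn1 and Unc5d are low signals, and Plxna1 stands in both semaphorin pairs. Plxnb3, which a work cited by the study names with Sema5a, is not in the list and had a difference of 0.03. By the signs before rounding, the direction was the same in 16 pairs and opposite in 16. Some of the opposite pairs have a ligand, Sema3c or Efnb2, with a difference of 0.00. Sema6a with Plxna2, the pair known from granule cell migration, had 0.12 (adjusted p = 0.984) for the ligand and -0.29 for the receptor. Sema3a with Nrp1 had -0.11 and -0.18, and Sema7a with Plxnc1 had 0.41 and 0.04. Slit3 had 0.15 beside -0.03 for Robo1 and -0.09 for Robo2. Slit1 and Slit2 with Robo1 and Robo2 stayed between -0.09 and 0.02, and Slit2 with Robo4 had -0.06 and -0.23. Ntn1, at 0.14, stood beside 0.08 for Unc5a, -0.13 for Unc5b and -0.02 for Unc5c. Of the other secreted semaphorins, Sema3f with Nrp2 had -0.13 and 0.05, and Sema3e with Plxnd1 had 0.03 and -0.10. Sema4d with Plxnb1, known from growth cone collapse, had 0.05 and -0.03. Sema6a with Plxna4 had 0.12 and 0.01, and Sema5a with Plxna3 had 0.22 and 0.01. Of the ephrin pairs Efna5 with Epha3 had 0.11 and 0.20, and Efnb2 with Ephb1 had 0.00 and -0.18. Epha4, which binds ephrins of both classes, had -0.02 beside 0.10 for Efna2, -0.09 for Efna3, 0.11 for Efna5 and -0.06 for Efnb3.

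**Figure D4:**
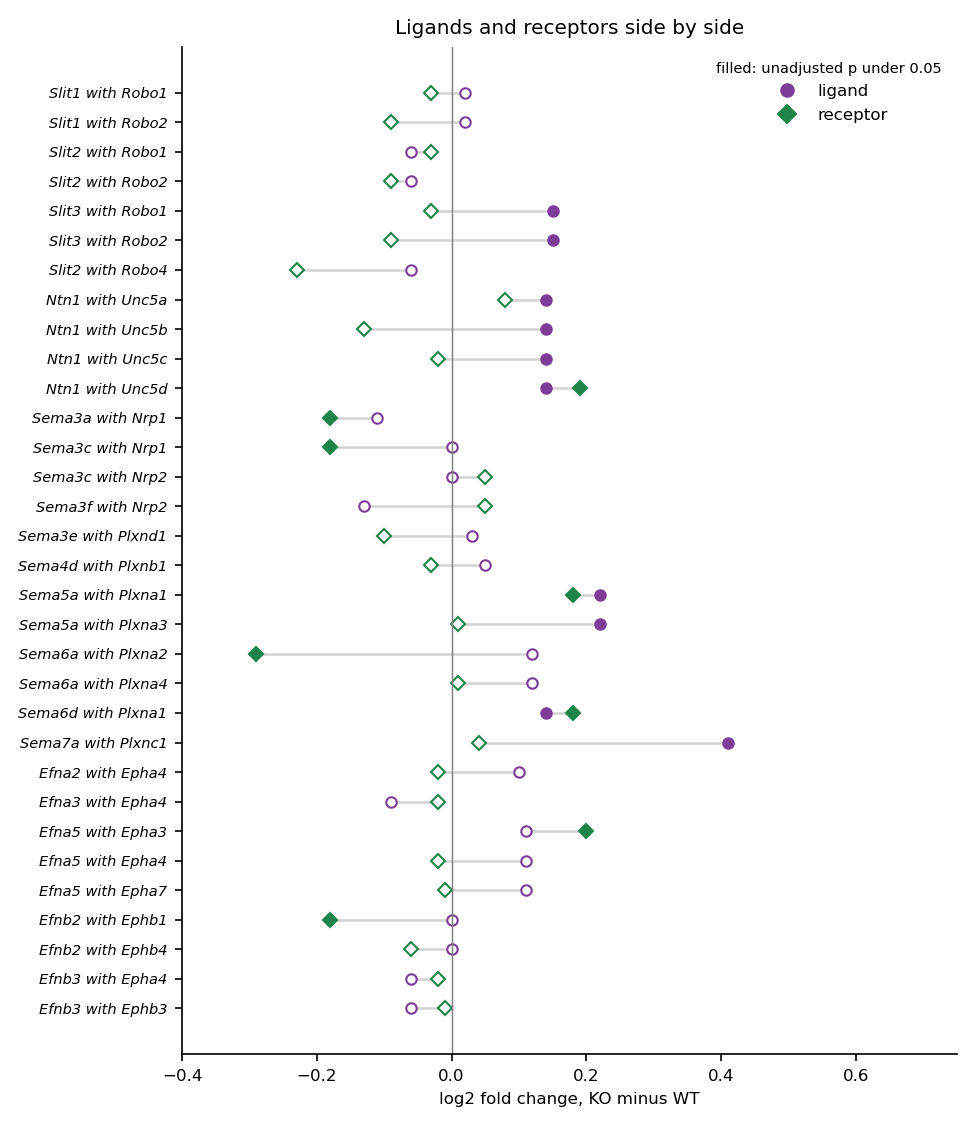
Difference in log2 signal, KO minus WT, of the ligand (circle) and the receptor (diamond) in the 32 pairs with both genes analysed; filled symbols have an unadjusted p under 0.05 and the grey line joins the pair. Both symbols are filled in 3 pairs. In 16 of 32 the signs before rounding differ, and in some of these the ligand, Sema3c or Efnb2, is drawn at 0.00.

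How far the members behaved alike in the 2 sets of arrays was examined next. Within arrays 1 to 4, 4 of 63 members had an unadjusted p under 0.05, against 8.69% of all genes, and within arrays 5 to 8 13 of 63 did, against 9.7%. The same sign was found in both sets for 35 members (55.6%), against 46.7% of all genes. An interaction at an unadjusted p under 0.05 was found for 6 of 63 members, against 10.1% of all genes, so that members were near the background. These were Plxna2 (-0.37), Robo4 (-0.70), Ntn5 (-0.85), Unc5d (0.26), Sema6c (0.43) and Sema3g (0.37), with adjusted p from 0.282 to 0.519. Sema6c, a class 6 semaphorin, was high on KO replicates 6, 7 and 8 (8.16, 8.42 and 8.30) and 7.20 to 7.77 on the other KO arrays, against 7.20 to 7.90 in WT. The other probes gave 0.03 each. The set effect itself, arrays 5 to 8 against 1 to 4 with genotype in the model, passed an adjusted p of 0.05 for 13 of 63 members, against 20.4% of all genes. Of the 13, 12 were higher on arrays 5 to 8, led by Sema6c (0.55), Sema4g (0.54) and Sema7a (0.52), and Plxnc1 was lower (-0.23). Most genes that passed on the whole array leaned the same way, with 2666 of 3391 higher on arrays 5 to 8 and 725 lower.

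**Figure D5:**
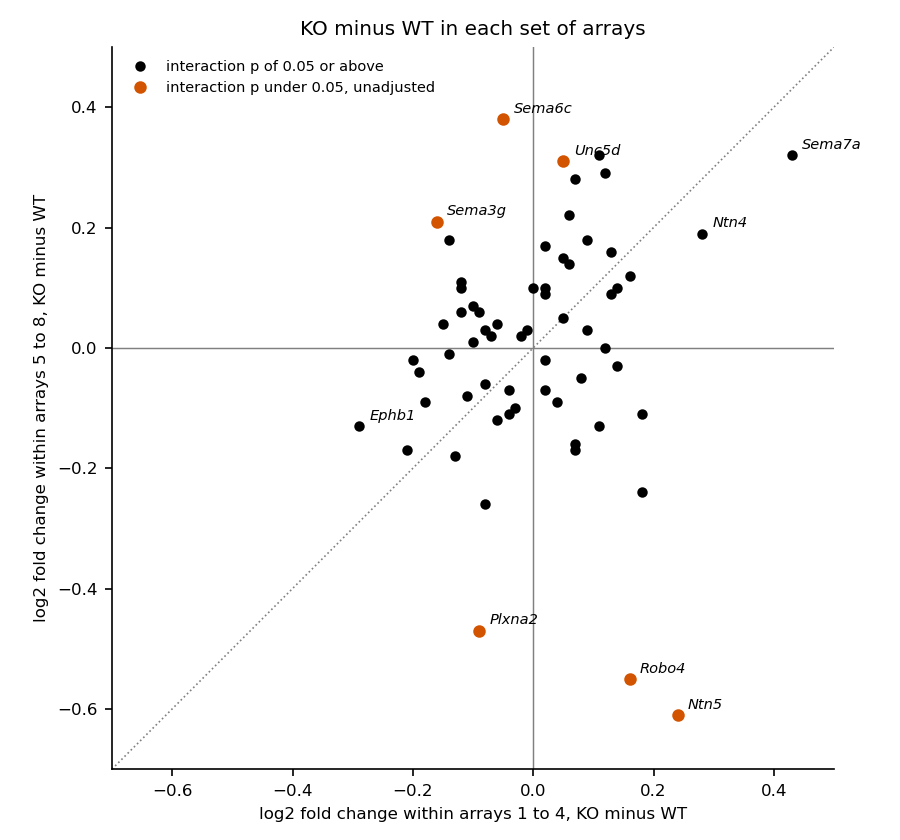
Difference in log2 signal, KO minus WT, within arrays 1 to 4 (x axis) and within arrays 5 to 8 (y axis) for the 63 genes; the dotted line marks equal differences. The 6 orange points have an unadjusted interaction p under 0.05, with Robo4 and Ntn5 above 0 in the first set and below 0 in the second.

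Beside the members, 49 of 61 listed effectors and other guidance genes were measured. At an unadjusted p under 0.05, 4 were lower in KO (Met, Cxcl12, Cxcr4 and Flrt1) and 0 higher, against 2.72% and 3.08% of all genes. Cxcr4 alone passed the adjusted threshold, and as the gene removed in KO its place among the 4 follows from the design. The signal of Met was below the common median on all arrays. Of the 4, only Met is among the listed effectors, in the 15 adaptors and kinases. Cxcl12, Cxcr4 and Flrt1 are among the 16 other guidance molecules and receptors. Of 5 collapsin response mediators, which carry semaphorin signals to the cytoskeleton, none was below that p in either direction. Cxcl12, the ligand of Cxcr4, averaged 10.40 ± 0.51 in KO and 11.07 ± 0.47 in WT (SD, n = 7 and 8). Its difference was -0.67 (adjusted p = 0.481), or -0.20 on arrays 1 to 4 and -1.02 on arrays 5 to 8, with its lowest values, 9.76, 9.77 and 10.12, on KO replicates 8, 7 and 6. It was -0.28 without these arrays, -0.22 with the meningeal covariate and -1.06 with Xist as a covariate.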

How the data were processed

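Per the labels and the methods, RNA of whole cerebella was amplified, biotin-labelled and hybridised to Illumina arrays. The authors deposited linear signal intensities that were not normalized between arrays, and log2 values scaled to a common median. The scaled values equal those computed here to within 6.2e-05. Array medians of the intensity were 97.3 to 122.9 in KO and 101.2 to 120.8 in WT, and precision is limited by how many arrays there are. Intensities were log2 transformed and scaled to the median of 6.84. No detection p was used. Of 25697 probes, 23978 had 1 symbol and 1719 none, and 23962 matched the RefSeq table of GRCm38.p6. KO and WT were compared by limma 3.58.1 (R 4.3.3; lmFit, eBayes, two-sided), with p adjusted after Benjamini-Hochberg over all probes, and the code was tested on simulated data. The brightest probe described a gene. Named genes have an unadjusted p under 0.05, the lowest p of their family, no overlap between groups, or a place in a pair, and others (Sema6c, Ntn5, Sema3g, Efna4 and genes given as range ends) were chosen after their values were seen. Members, pairs, marker and effector lists and the division of arrays were chosen with earlier results of these data known. Alternatives covered normalization, background, filters, probes, covariates, array sets and left-out arrays. Summaries used Python 3.11.15, numpy 2.4.6 and pandas 2.3.3, and figures matplotlib 3.10.9.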

Additional observations from a re-analysis of the deposited data

Results flagged for a closer look

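Of 126 groups (63 genes in KO and in WT), 7 held 1 array far from the others of its group by Dixon's criterion, and chance gives about 1 in 20. KO replicate 8 was high for Robo2 (7.13, next 6.84) and for Epha4 (7.20, next 7.00). KO replicate 2 was low for Efna2 (5.87, next 6.07) and for Epha6 (6.23, next 6.46). WT replicate 6 was high for Sema3c (6.27, next 6.10), WT replicate 2 for Plxnd1 (7.14, next 7.01) and WT replicate 7 for Epha10 (6.64, next 6.31). None of these 7 genes is among the 13 with an unadjusted p under 0.05.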

How the results depend on the processing

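Over 31 alternatives the 13 genes with an unadjusted p under 0.05 gave 400 values, and none reversed in sign. The 13 were picked by their p on these same arrays, so that a kept sign is not support for them. No member passed the adjusted threshold in the main fit, and 399 values stayed uncalled. Plxna2 passed it on arrays 5 to 8 only (-0.47), the single alternative with a member called (1 gene). Over the alternatives 3 (arrays 1 to 4 only) to 13 of the 13 kept an unadjusted p under 0.05. Without normalization 2 genes were lower and 5 higher at an unadjusted p under 0.05, against 1.63% and 2.52% of all genes. On arrays 1 to 4 only, 2 were lower and 2 higher, against 3.68% and 5.01%. With Xist as a covariate 4 were higher, against 2.97%. Of the 2 alternatives chosen after seeing the data, the meningeal covariate gave 7 lower and 2 higher, against 4.33% and 2.44%. The other, without KO replicates 6, 7 and 8, gave 2 higher, against 2.78%. Leaving out 1 array at a time gave 1 to 5 lower genes, against 2.09% to 3.18% of all genes, and 7 to 10 higher genes, against 2.34% to 4.41%. It gave 0 called genes and a median difference of -0.0163 to 0.0217. The causes were not tested, except that array subsets hold fewer samples. The labels' numbers did not pair the samples: correlations of same-numbered deviations were -0.20 to 0.39, 3 of 7 over 0.1, and 1 KO array was closest to its own number. With the replicate block 4 genes were lower and 8 higher at an unadjusted p under 0.05, against 3.76% and 4.48% of all genes. With this block 0 genes were called, the median was 0.00438, and Plxna2 was -0.29. Ntn1 and Unc5d lay below the common median on all arrays, and how well the array measures such signals was not tested.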
